A study of Homo sapiens with 12 samples.

Results

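The comparison described here was the silencing of BDNF in senescent WI-38 cells, an established line of human diploid lung fibroblasts. It rested on 6 of the 12 RNA-seq libraries of the series. In 3 of them (siBDNF) the cells carried an ON-TARGETplus SMARTPool siRNA against BDNF, and in the other 3 (siCtrl) a control siRNA, in both cases transfected at 25 nM on the day before the damage. Both groups were then made senescent with 50 µM etoposide, a topoisomerase II poison that breaks DNA, and were collected at day 8. The members were chosen by these labels alone, and all genes of the count table were described. The other 6 libraries were 3 of etoposide-treated cells with an siRNA pool against NTRK2 and 3 of proliferating cells with the control siRNA, which had no etoposide. They entered the common statistical model, and the NTRK2 siRNA was used below for a direct comparison. A single siRNA pool stood for each target, and the labels do not say whether replicates were separate cultures. The study states in general terms that its experiments were repeated independently with all groups run together, but not for these libraries by name, so that the p-values measure the spread between these libraries, which may be technical.

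BDNF, brain-derived neurotrophic factor, is a secreted growth factor best known in neurons. It is made as a precursor, pro-BDNF, which is cut by furin-like convertases inside the cell or by plasmin and matrix metalloproteinases outside it. The mature form binds TrkB, the receptor tyrosine kinase encoded by NTRK2, and through it the ERK, PI3K and PLCγ pathways. The precursor binds p75NTR (NGFR) together with sortilin (SORT1). Senescent cells are cells that have left the cell cycle for good, resist apoptosis and secrete cytokines, proteases and growth factors.

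The 3 siCtrl libraries held 56918503, 57612422 and 58653356 counts assigned to genes, and the 3 siBDNF libraries 31567912, 65205301 and 67146223. A count of 3, taken as the floor of detection, was worth between 0.0437 and 0.0916 CPM (counts scaled to a common library size) in these libraries. Fibroblast markers summed to 23280 to 25069 normalised CPM in the siCtrl libraries and to 24054 to 24624 in the siBDNF libraries. The epithelial list summed to 3.93 to 4.83 CPM in siCtrl and 5.43 to 6.46 in siBDNF, and the leukocyte list to 2.25 to 2.98 and 2.99 to 3.14. Neither list had a member that passed the test. The neuronal list summed to 260 to 285 CPM in siCtrl and to 302 to 312 in siBDNF, higher in each siBDNF library, and nearly all of it was the tubulin gene TUBB3, at 277, 254 and 263 CPM against 297, 297 and 306. On the first principal component of the 6 libraries, which carried 64.3% of the variance, the siBDNF libraries lay at 12.5 to 15.1 and siCtrl replicates 1, 2 and 3 at −15.8, −8.30 and −16.8. The siCtrl library of replicate 2 thus lay closest to the siBDNF libraries.

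BDNF mRNA was lower in every siBDNF library. Its level was 161, 157 and 169 normalised CPM in the siCtrl libraries and 48.1, 48.9 and 44.3 in the siBDNF libraries, with no overlap. This was a 3.45-fold decrease, or −1.79 ± 0.05 (SE) on the log2 scale, with an adjusted p of 1.72e-18 in edgeR's quasi-likelihood test. The gene lies on the minus strand at chr11:27676440-27743605 (hg19). Its antisense lncRNA, BDNF-AS, lies on the plus strand at chr11:27528377-27719778 and overlaps it. BDNF-AS was listed at 45.1, 42.9 and 47.9 CPM with siCtrl and at 12.3, 13.9 and 11.1 with siBDNF (log2 fold change −1.86 ± 0.07, adjusted p = 3.85e-15). Whether reads were counted by strand is not given in the sources used here, so reads of the overlapping part of the pair cannot be told apart. As in all bulk samples, fewer cells with a transcript and less of it per cell cannot be told apart either. The study also reported that silencing BDNF or TrkB lowered the survival of etoposide-treated WI-38 cells, early and more strongly late in senescence. The libraries thus came from the cells that were left at day 8. The part of this loss of cells in the changes described here was not tested.

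Among the other neurotrophins and receptors, 2 of the 10 that could be tested changed, against 20.5% of all tested genes called in either direction. SORT1, encoding sortilin, fell from 83.8, 86.1 and 82.5 CPM to 60.9, 61.8 and 59.0 (log2 fold change −0.47 ± 0.05, edgeR adjusted p = 4.22e-08). NTF3, encoding neurotrophin-3, was at 5.43, 5.94 and 6.08 CPM in siCtrl and 4.27, 4.92 and 3.99 in siBDNF (−0.40 ± 0.12, adjusted p = 0.0138). The NTF3 call was lost without siBDNF replicate 3 (adjusted p = 0.0962) or siCtrl replicate 3 (0.0634) and with the length and GC offset described below (0.0503). NTRK2 itself was near the floor, at 0.125, 0.258 and 0.173 CPM with siCtrl and 0.305, 0.340 and 0.422 with siBDNF, and the difference did not pass the test (adjusted p = 0.356). NGFR was at 1.44 to 1.84 CPM in siCtrl and 1.71 to 2.17 in siBDNF, with overlapping groups. NTF4, NTRK3, SORCS1 and SORCS2 did not pass either, and SORCS3 was too low to be tested.

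Of the 7 tested genes for proteases that cut pro-BDNF or act upstream of one that does, as PLAT does for plasmin, 2 rose and 2 fell. Of all tested genes 10.3% were called higher and 10.2% lower. FURIN, encoding the convertase furin, rose from 169, 173 and 166 CPM to 213, 221 and 222 (log2 fold change 0.37 ± 0.05). PCSK7, encoding a related convertase, fell from 539, 480 and 536 CPM to 389, 380 and 416 (−0.39 ± 0.05). PLAT, encoding tissue plasminogen activator, fell by 0.28, from 555, 512 and 553 CPM to 432, 446 and 456. MMP3, encoding stromelysin, showed the largest change of the group. It rose from 27.0, 29.0 and 27.5 CPM to 51.8, 51.4 and 49.9 (0.87 ± 0.06, edgeR adjusted p = 1.00e-10). None of these 4 genes had overlapping groups.

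Across all genes, 21518 passed the filter on low counts and were tested. At an adjusted p below 0.05, 4412 of them differed, which was 20.5% of those tested. Of these, 2227 were higher with siBDNF (10.3%) and 2185 lower (10.2%), and the median size of a called change was 0.29 on the log2 scale. When a change of more than 1 on the log2 scale was also asked for, as the study did, 131 genes remained (0.609%), 80 higher (0.372%) and 51 lower (0.237%). With library totals in place of TMM factors, 3139 genes were higher and 1388 lower at the adjusted p alone, and 97 and 38 at the full threshold, so the balance of the directions depended on the scaling. Without siBDNF replicate 2 there were 2914 calls, 1344 of them lower, and 87 at the full threshold, 48 of them higher. Without siBDNF replicate 1, 47 genes were higher at the full threshold, and without siCtrl replicate 3, 1410 were lower at the adjusted p alone. Below, "rose" and "fell" refer to genes at an adjusted p below 0.05, and the number called among a group of genes is to be read against 10.3% and 10.2%.

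The direction of a change moved with the length of the transcript. Among 15064 nuclear protein-coding genes, the log2 fold change had a Spearman correlation of 0.32 with the length of the longest annotated transcript and of −0.24 with its GC content, across genes that are not independent replicates. In the quintile of genes with the shortest transcripts, 3.72% were called higher and 21.1% lower, with a median log2 fold change of −0.10. In the quintile with the longest, 30.1% were called higher and 4.85% lower, with a median of 0.14. The siCtrl library of replicate 2 deviated from the mean of its group in the same direction, from −0.054 in the shortest quintile to 0.045 in the longest. A repeat of the test with a length and GC offset fitted to each library, chosen after the data had been seen, called 4454 genes (20.7%), 2058 higher (9.56%) and 2396 lower (11.1%). Of the 4412 genes, 3370 were also called in that repeat. Its result is given below for several groups of genes, among them those with mostly short or long transcripts.

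**Figure D1:**
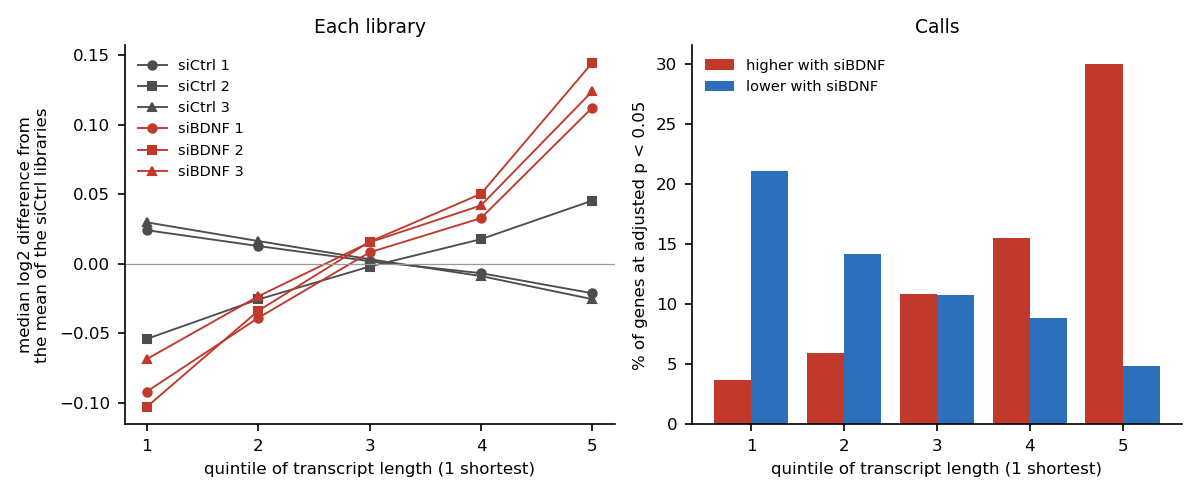
Left, the median log2 difference of each of the 6 senescent libraries from the mean of the siCtrl libraries, for nuclear protein-coding genes split into quintiles by transcript length (1 shortest, 5 longest). Right, the percentage of genes in each quintile called higher (red) or lower (blue) with siBDNF at an adjusted p below 0.05. The siBDNF lines climb from −0.068 to −0.103 in the shortest quintile to 0.112 to 0.144 in the longest, and siCtrl 2 has a shallower slope of the same sign.

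The largest increases at the full threshold were in genes of low abundance. They were taken only from genes with a symbol, no overlap of the groups and at least 1 CPM in the higher group. GNGT1, encoding the γ subunit of transducin, rose from 3.17, 3.26 and 3.17 CPM to 12.2, 8.57 and 10.4 (log2 fold change 1.69 ± 0.15, edgeR adjusted p = 1.41e-08). TNFSF15, encoding the TNF family cytokine TL1A, rose from 2.98, 3.93 and 2.72 CPM to 10.2, 8.63 and 9.30 (1.54 ± 0.14, adjusted p = 1.76e-08). Both genes were higher in each siBDNF library than in any siCtrl library, as that choice required. THBD, encoding the anticoagulant receptor thrombomodulin, had the largest log2 fold change among the 15 largest increases and rose from 1.44, 1.10 and 0.485 CPM to 3.51, 3.04 and 3.77 (1.77 ± 0.27). C3, encoding the central complement component, rose from 11.2, 13.2 and 10.2 CPM to 28.7, 29.2 and 27.3 (1.30 ± 0.08, adjusted p = 8.91e-11). L1CAM, encoding a neural cell adhesion molecule, rose from 3.85, 4.12 and 4.54 CPM to 10.3, 9.48 and 10.5 (1.27 ± 0.11). That the siBDNF and siCtrl libraries did not overlap for any of these genes was a condition of the choice and is no further result.

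The rest of the 15 largest increases were in genes of mixed kinds. GABRA2, encoding a GABA-A receptor subunit, rose by 1.20 ± 0.19 from 1.41, 1.602 and 1.77 CPM to 3.63, 3.89 and 3.45. CBLN2, encoding a synaptic organiser of the cerebellin family, rose by 1.27, and CXADR, encoding the coxsackievirus and adenovirus receptor, by 1.61. The neuropeptide gene CCK had a log2 fold change of 1.54, but its call was lost without siBDNF replicate 3 (adjusted p = 0.0774). IL1A, encoding the cytokine interleukin-1α, rose from 0.677, 0.396 and 0.727 CPM to 1.47, 1.58 and 1.69 (1.40 ± 0.34, edgeR adjusted p = 0.00441). MFAP5 (1.20) and TAF4B (1.34) were also among the 15, as were the lncRNA gene NAV2-AS1 (1.40) and the microRNA genes MIR3648 (1.30) and MIR3687 (1.27), all 3 of them at 2.41 CPM or less. The MFAP5 call was lost without siBDNF replicates 1 or 3 or siCtrl replicates 2 or 3 (0.0539 to 0.119), and the TAF4B call without siBDNF replicates 1 or 2 or siCtrl replicate 1 (0.0565 to 0.0781). The MIR3687 call was lost without siBDNF replicate 2 or siCtrl replicate 1 (0.0734 and 0.0622). A list of 31 ion channel and neuronal genes, of which 30 were tested, had 11 members higher and 0 lower with a median of 0.24, and among them NTNG1, encoding the axon guidance protein netrin-G1, rose by 0.74 and SEMA3C, encoding a semaphorin, by 0.45. These are long transcripts (median 7905 bases), and with the length and GC offset 8 were higher and 3 lower with a median of 0.05. The summed level of the neuronal markers, given above, was also higher with siBDNF, and its part in these counts was not tested.

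Among genes of at least 1 CPM in the higher group, the largest decreases after BDNF-AS and BDNF began with CORIN, encoding a membrane serine protease that processes natriuretic peptides. It fell from 4.29, 4.63 and 4.88 CPM to 1.68, 1.52 and 1.18 (log2 fold change −1.69 ± 0.14, edgeR adjusted p = 6.81e-09). VCAM1, encoding a leukocyte adhesion molecule, fell from 6.66, 7.29 and 7.93 CPM to 2.84, 3.25 and 3.49 (−1.17 ± 0.10, adjusted p = 1.35e-08). MGARP, encoding a mitochondrial membrane protein, fell from 13.5, 12.7 and 13.6 CPM to 5.86, 6.28 and 6.51 (−1.09 ± 0.08, adjusted p = 1.43e-09). In all 3 genes every siBDNF library was below every siCtrl library, which the choice of the largest decreases required. The lncRNA gene RIPOR3-AS1 fell by 1.21, and PDE6G, FXYD1 and GPR63 by 1.32, 1.35 and 1.13, all 3 of them at low levels. FABP4, encoding the adipocyte fatty acid-binding protein, was under the 1 CPM asked of the largest changes and fell from 0.695, 1.05 and 1.14 CPM to 0.275, 0.222 and 0.291 (−1.88 ± 0.31). The pseudogene HSP90AA3P, a near-copy of an HSP90 gene with which it may share reads, had a log2 fold change of −1.19 at 1.36 CPM or less, a call lost without siCtrl replicate 2 (adjusted p = 0.0590). KATNAL2 was also among the 15 (−1.16), and its call was lost without siBDNF replicate 2 or siCtrl replicate 1 (adjusted p = 0.0614 and 0.0520).

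**Figure D2:**
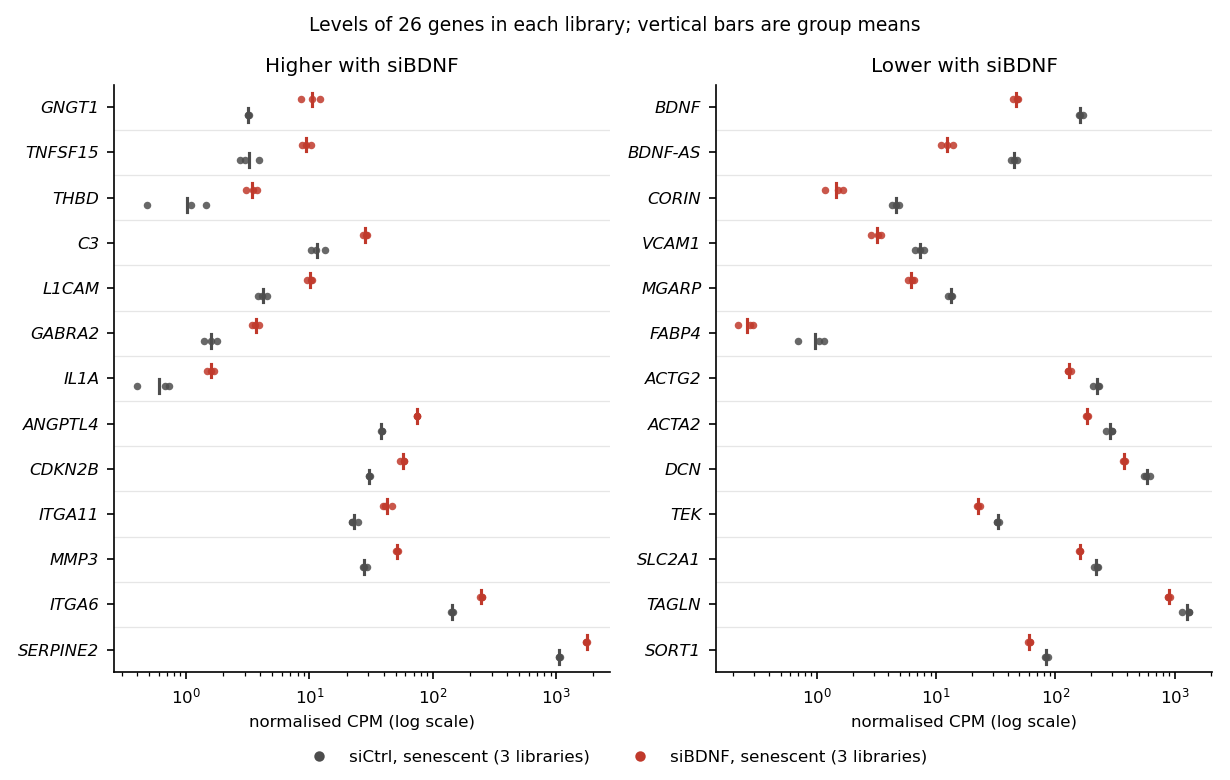
Normalised CPM on a log scale of 26 genes in the 3 siCtrl (grey) and 3 siBDNF (red) libraries of senescent cells, with genes that rose on the left and genes that fell on the right. Points are libraries and vertical bars are group means. In every gene shown the siBDNF and siCtrl points are separate, for example 3.45-fold lower for BDNF and 3.22-fold higher for GNGT1. For the genes taken from the largest changes, separate groups were a condition of the choice.

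In terms of abundance, the largest losses were in the mitochondrial genome, which encodes 13 subunits of the respiratory chain and ATP synthase and 2 rRNAs. Reads from mitochondrial genes made up 3.65%, 3.43% and 3.33% of all counts in the siCtrl libraries and 2.38%, 2.03% and 1.78% in the siBDNF libraries. The difference of −1.40 percentage points had an exact two-sided permutation p of 0.1, the smallest that 3 against 3 libraries can give. Of the 13 protein genes, 12 fell, with a median log2 fold change of −0.97 over the 13. MT-CO1, encoding subunit 1 of cytochrome c oxidase, fell from 7335, 6990 and 6845 CPM to 4038, 3523 and 2914 (−1.02 ± 0.09, edgeR adjusted p = 6.54e-09). MT-ND4, encoding a complex I subunit, fell from 3292, 3052 and 2973 CPM to 1735, 1502 and 1206 (−1.07 ± 0.09). MT-CO2, MT-ATP6 and MT-CO3, encoding subunits of cytochrome c oxidase and ATP synthase, were among the 6 largest losses in CPM as well and fell by 0.84, 0.98 and 0.97. The exception was MT-ND3, another complex I subunit, at 364, 341 and 353 CPM with siCtrl and 367, 324 and 370 with siBDNF (adjusted p = 0.975).

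In each of the 12 genes that fell, siBDNF replicate 1 was the highest and replicate 3 the lowest of the siBDNF libraries, and all were below the siCtrl libraries. Replicate 1 was also the library with the fewest counts, and the part of depth in this order was not tested. The rRNAs moved less. MT-RNR1 fell by 0.56 and MT-RNR2 by 0.26 (edgeR adjusted p = 9.40e-06 and 0.00375), and by 0.48 and 0.24 with the length and GC offset. The pseudogenes MTATP6P1, MTCO1P12, MTCO3P12 and MTND4P12, near-copies of mitochondrial genes on nuclear chromosomes, fell by 1.10 to 1.18, and their reads cannot be told apart from those of the mitochondrial genes. With the length and GC offset the same 12 genes fell, with a median of −0.91, and the share of mitochondrial reads differed by −1.56 to −1.26 points when 1 library was left out in turn.

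**Figure D3:**
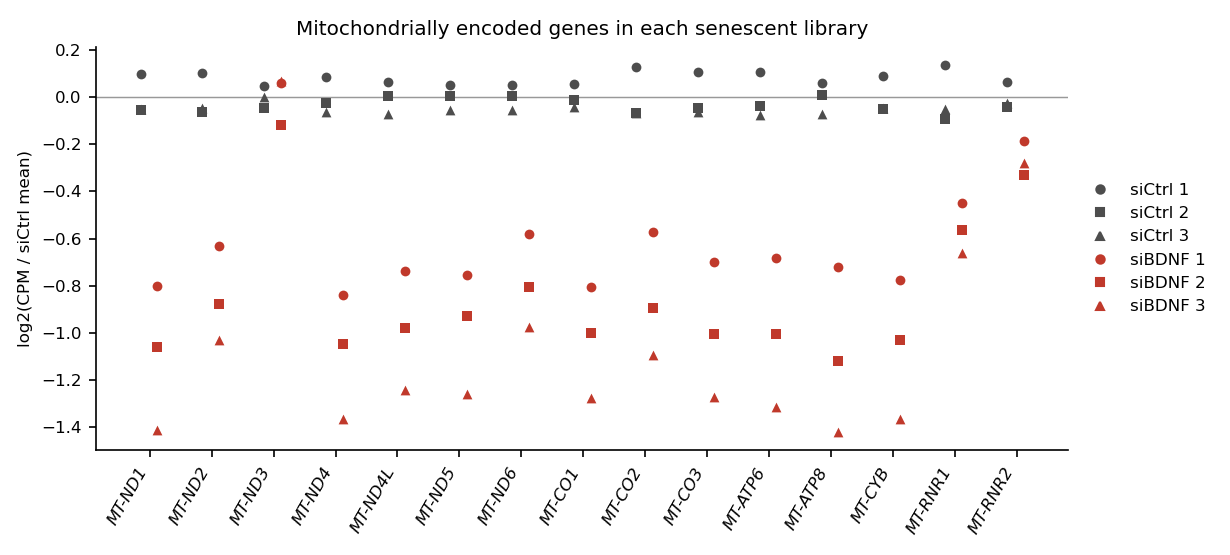
Log2 ratio of each library's normalised CPM to the mean of the 3 siCtrl libraries for the 13 mitochondrial protein genes and the 2 mitochondrial rRNAs, with siCtrl in grey and siBDNF in red and a symbol for each replicate. The siBDNF points lie well below the siCtrl points in 12 protein genes, overlap them in MT-ND3, and lie at smaller distances in MT-RNR1 (−0.56) and MT-RNR2 (−0.26).

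Of 33 nuclear subunits of the respiratory chain and ATP synthase, 19 fell and 0 rose, with a median log2 fold change of −0.17. COX6C and COX4I1, both subunits of cytochrome c oxidase, fell by 0.26 and 0.27. COX4I1 was at 293, 256 and 290 CPM in siCtrl and 235, 226 and 237 in siBDNF, so that the siCtrl library of replicate 2 was again nearest to the siBDNF libraries. With the length and GC offset 18 fell. With library totals 10 fell (median −0.11), and without siBDNF replicate 2, siCtrl replicate 1 or siCtrl replicate 3 the number was 10, 12 and 10. TFAM, encoding the transcription factor and packaging protein of mitochondrial DNA, had a log2 fold change of 0.34, a call that was lost without siBDNF replicate 3 (edgeR adjusted p = 0.0822) and with the offset (0.0619).

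All 35 cytosolic ribosomal protein genes on the list fell, by a median of 0.28 on the log2 scale. Their summed level was 28252, 25068 and 28580 CPM in the siCtrl libraries and 22588, 22133 and 23331 in the siBDNF libraries. RPLP2, encoding a protein of the ribosomal stalk, fell from 440, 374 and 426 CPM to 312, 313 and 325 (−0.38 ± 0.05, edgeR adjusted p = 1.50e-05). RPSA, of the small subunit, fell by 0.33. These transcripts are short (median 1820 bases), and 33 of the 35 fell with the length and GC offset (median −0.21), 30 with library totals, and 29 to 35 when any library was left out. EEF1A1, encoding the elongation factor that brings aminoacyl-tRNAs to the ribosome, had a log2 fold change of −0.18, a call that did not hold without siCtrl replicate 3 (adjusted p = 0.0521). Of 30 proteasome subunits, 13 fell and 0 rose (median −0.12). PSMA2, PSMB4 and PSMB1, of the catalytic core, fell by 0.35, 0.28 and 0.26. The count of proteasome genes was sensitive, with 6 lower and 1 higher under library totals (median −0.06), and 6, 7, 5 and 7 without siBDNF replicate 1, siBDNF replicate 2, siCtrl replicate 1 and siCtrl replicate 3.

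Contractile genes, which serum response factor (SRF) and its actin-sensing partner MRTF are known to drive in fibroblasts and smooth muscle, were lower in part. Of 24 such genes, 14 fell and 1 rose, with a median log2 fold change of −0.20. ACTG2, encoding smooth muscle γ-actin, fell from 231, 208 and 230 CPM to 127, 127 and 136 (−0.78 ± 0.05, edgeR adjusted p = 1.33e-10). ACTA2, encoding smooth muscle α-actin, the usual marker of myofibroblasts, fell from 298, 264 and 299 CPM to 185, 180 and 187 (−0.64 ± 0.05, adjusted p = 3.03e-09). In both genes the siBDNF libraries spread less than the siCtrl libraries, and the groups did not overlap. TAGLN, encoding the actin-binding protein transgelin, was at 1329, 1154 and 1328 CPM against 880, 875 and 918 (−0.51). MYL9, encoding the regulatory myosin light chain, was at 1068, 984 and 1090 CPM against 741, 723 and 759 (−0.50). LMOD1 and TPM2, encoding leiomodin and a tropomyosin, fell by 0.56 and 0.45. The one member that rose was MYH9, encoding a non-muscle myosin heavy chain (0.24), and 2 rose with library totals or without siCtrl replicate 2. With the length and GC offset 15 fell, with library totals 10, and with a library left out 10 to 14.

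Promoter sequence was looked up for this group, because the CArG box is the known binding motif of SRF. RefSeq sequence (GRCh38.p14) was matched for 18 of the 24 genes, and the 250 bases before each start site were searched on both strands for the CArG box. Only exact matches counted, that is CC, 6 bases of A or T, and GG. Boxes with a mismatch or outside these 250 bases were not looked for. It was present in 8 of the 18, in 202 of 13125 tested genes (1.54%) and in 407 of all 35116 such windows (1.16%). Of the 18 genes 11 fell, 5 of the 8 with the motif and 6 of the 10 without an exact match in the window. Genes without such a match may still have an SRF site, so these counts do not compare genes with and without one. Those with the motif that fell were ACTG2, ACTG1, CNN2, TGFB1I1 and TPM4. The other 3 with the motif did not pass the test, with log2 fold changes of −0.58 for ACTC1, encoding cardiac α-actin, 0.11 for FLNA, encoding filamin A, and 0.09 for SRF itself (adjusted p = 0.226, 0.126 and 0.341). FLNA passed with library totals (0.17, adjusted p = 0.0130) and with no filter (0.0239). The calls of TGFB1I1 and TPM4 were lost with library totals (edgeR adjusted p = 0.0555 and 0.141), and also without single libraries, namely siBDNF replicate 2 or siCtrl replicate 1 for TGFB1I1 (0.0609 and 0.0781) and siBDNF replicates 1 or 2 or siCtrl replicate 3 for TPM4 (0.0637, 0.0637 and 0.0888). The windows of ACTG2, CNN2 and ACTG1 are printed below to show where the motif lies, 5′ to 3′ on the coding strand with the boxes in capitals and the last base next to the start site. That of ACTG2 is chr2:73892758-73893007 on the plus strand, that of CNN2 chr19:1026358-1026607 on the plus strand, and that of ACTG1 chr17:81512800-81513049 on the minus strand.
ACTG2: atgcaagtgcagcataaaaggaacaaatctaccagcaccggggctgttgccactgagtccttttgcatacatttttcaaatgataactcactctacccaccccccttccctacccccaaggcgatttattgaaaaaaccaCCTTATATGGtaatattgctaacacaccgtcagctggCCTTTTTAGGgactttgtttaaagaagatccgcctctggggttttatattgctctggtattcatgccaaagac
CNN2: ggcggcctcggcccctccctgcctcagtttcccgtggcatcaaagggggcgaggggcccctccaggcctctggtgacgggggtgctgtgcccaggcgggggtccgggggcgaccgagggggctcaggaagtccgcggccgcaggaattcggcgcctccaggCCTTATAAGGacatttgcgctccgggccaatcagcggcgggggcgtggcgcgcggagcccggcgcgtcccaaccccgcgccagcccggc
ACTG1: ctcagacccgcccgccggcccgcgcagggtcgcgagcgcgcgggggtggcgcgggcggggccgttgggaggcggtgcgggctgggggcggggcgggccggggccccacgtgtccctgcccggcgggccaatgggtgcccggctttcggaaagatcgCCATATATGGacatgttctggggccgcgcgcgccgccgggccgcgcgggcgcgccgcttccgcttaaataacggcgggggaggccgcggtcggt
The window of ACTG2 held 2 boxes, which began 110 and 73 bases before the start site. The boxes of CNN2 and ACTG1 began 89 and 94 bases before it. CNN2, encoding calponin 2, fell from 366, 331 and 349 CPM to 292, 284 and 292, and ACTG1, encoding cytoplasmic γ-actin, from 4207, 3711 and 4143 CPM to 3443, 3368 and 3564. A match is a description of the sequence, and binding was not measured.

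Of 26 integrin and laminin genes, which serve adhesion to the matrix, 17 rose and 2 fell, with a median log2 fold change of 0.28. ITGA6, encoding the α6 subunit of laminin receptors, rose from 139, 146 and 142 CPM to 242, 249 and 249 (0.79 ± 0.05, edgeR adjusted p = 6.71e-11). ITGA11, encoding a collagen receptor subunit of fibroblasts, rose from 22.1, 24.6 and 22.2 CPM to 40.7, 46.3 and 39.5 (0.88 ± 0.07). LAMA4 and LAMB3, encoding laminin chains, rose by 0.67 and 0.69, and ITGB1, encoding the β1 subunit shared by many integrins, by 0.37. The members that fell were ITGA8 (−0.54) and ITGA4 (−0.23), and the ITGA4 call was lost with library totals (edgeR adjusted p = 0.135) and without any siBDNF library or siCtrl replicate 2 (0.0544 to 0.158). These transcripts are long (median 6642 bases). With the length and GC offset 15 rose and 3 fell with a median of 0.21, and 17 rose whichever library was left out.

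Of 27 collagen genes, 13 rose and 3 fell (median log2 fold change 0.22), and with the length and GC offset 13 rose and 4 fell. COL6A3, encoding the α3 chain of collagen VI, rose from 1472, 1638 and 1349 CPM to 1866, 2042 and 1934 (0.39 ± 0.05, edgeR adjusted p = 6.39e-06). COL4A6, of basement membrane collagen IV, rose from 15.9, 16.4 and 13.9 CPM to 23.0, 24.6 and 23.9 (0.63), and COL5A1 and COL4A5 rose by 0.43 and 0.37. Of the chains of collagen I, the main fibrillar collagen, COL1A2 rose by 0.22, and by 0.12 with the length and GC offset (edgeR adjusted p = 0.0257). COL1A1, at 0.09, passed the test only without siCtrl replicate 2 among the libraries left out (0.15, adjusted p = 0.0287). COL1A1 also passed with library totals (0.15, 0.0405) and with no filter (0.0316). COL15A1 and COL6A1 fell by 0.66 and 0.24, and COL14A1 had a value of −0.29 that lost its call with library totals (adjusted p = 0.121), in a fit of only the 6 libraries (0.0519) and without any siBDNF library, siCtrl replicate 1 or siCtrl replicate 2 (0.0514 to 0.295).

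Another 30 matrix genes were split, with 9 higher and 10 lower, and 5 higher without any siBDNF library, siCtrl replicate 1 or siCtrl replicate 3. FN1, encoding fibronectin, showed the largest gain in abundance of any gene, from 10119, 12014 and 9479 CPM to 13671, 15209 and 14120 (0.44 ± 0.06, edgeR adjusted p = 5.48e-06). With the length and GC offset the FN1 value was 0.29. VCAN, encoding the proteoglycan versican, rose from 183, 202 and 170 CPM to 285, 305 and 289 (0.66), and FBN1, encoding fibrillin-1, by 0.47. DCN, encoding the small proteoglycan decorin, fell from 556, 626 and 578 CPM to 370, 382 and 376 (−0.64 ± 0.04, adjusted p = 2.23e-10). FBLN5, encoding the elastic fibre protein fibulin-5, fell by 0.39. DCN was also 1 of the 6 of 10 fibroblast markers that fell, with THY1 (−0.54), VIM (−0.29) and PDGFRA (−0.24), while COL1A2 rose. The remaining calls, LUM (−0.17) and PDGFRB (−0.14), were lost with library totals (adjusted p = 0.140 and 0.168). They were also lost without siBDNF replicate 2 or siCtrl replicates 2 or 3 for LUM (0.0569 to 0.112) and without any library but siCtrl replicate 2 for PDGFRB (0.0606 to 0.115), for PDGFRB also with no filter (0.0755). TEK, encoding the angiopoietin receptor, was the 1 endothelial marker that changed, from 32.2, 34.0 and 32.3 CPM to 22.5, 22.2 and 23.3 (−0.53).

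The senescence-associated secretome moved upward in part. Of 24 genes known to be driven by interleukin-1 and NF-κB, 9 rose and 1 fell, with a median log2 fold change of 0.25, which was 0.16 without siCtrl replicate 1. With the length and GC offset these counts were 9 and 1 as well, with a median of 0.28. Besides IL1A, the members with the smallest p were TNFAIP3 (0.44), NFKBIA (0.25) and IRAK2 (0.35), the first 2 encoding feedback inhibitors of NF-κB and the last a kinase of interleukin-1 receptor signalling, and CCL2. CCL2, encoding a monocyte chemokine, was the member that fell, from 16.6, 17.1 and 16.7 CPM to 12.9, 10.5 and 12.4 (−0.50 ± 0.08, edgeR adjusted p = 6.77e-05). CXCL8, encoding interleukin-8, was at 35.3, 38.7 and 39.1 CPM in siCtrl and 45.6, 43.3 and 46.2 in siBDNF (0.26), a call lost without siCtrl replicate 1 (adjusted p = 0.0625). IL1B had a log2 fold change of 0.63 that did not hold without siBDNF replicate 2, siBDNF replicate 3 or siCtrl replicate 1 (adjusted p = 0.0812, 0.0767 and 0.0973). IL6 did not pass the test, with 6.77, 6.74 and 6.61 CPM against 6.99, 6.16 and 7.15.

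On the lists of matrix metalloproteinases with TIMPs and of plasminogen activation, the genes that changed rose, with the exception of PLAT. Of 15 matrix metalloproteinase and TIMP genes tested, 5 rose and 0 fell. Beside MMP3 these were MMP1, encoding interstitial collagenase, from 529, 533 and 521 CPM to 692, 691 and 693 (log2 fold change 0.39), MMP14, from 811, 828 and 820 CPM to 1158, 1201 and 1172 (0.52 ± 0.04, edgeR adjusted p = 2.20e-09), MMP16 (0.67) and MMP2 (0.27). The 5 calls held whichever library was left out. SERPINE2, encoding protease nexin-1, an inhibitor of thrombin and plasminogen activators, rose from 1057, 1059 and 1067 CPM to 1748, 1751 and 1791 (0.73 ± 0.04, adjusted p = 1.25e-12). Its siBDNF and siCtrl libraries were each within a narrow range. PLAU, encoding urokinase, and SERPINB2, encoding an inhibitor of it, rose by 0.30 and 0.47. Of the 6 plasminogen activation genes 3 rose and PLAT fell, and 5 rose with library totals or with the length and GC offset.

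Growth factor genes moved in both directions, with 8 of 21 higher and 5 lower. Lower were 2 with library totals and 3, 2 and 3 without siBDNF replicate 1, siBDNF replicate 2 and siCtrl replicate 2. ANGPTL4, encoding a lipoprotein lipase inhibitor, rose from 38.4, 38.0 and 38.4 CPM to 74.6, 74.3 and 73.8 (log2 fold change 0.95 ± 0.05, edgeR adjusted p = 6.65e-12). The EGF receptor ligands AREG and EREG rose by 0.83 and 0.77, and the glycoprotein hormone gene STC1 by 0.64. In the TGF-β and BMP group 8 of 23 rose and 3 fell, with INHBA (0.62, activin βA), BMP2 (0.70), LTBP2 (0.34) and ID1 (0.37, a BMP target) those with the smallest p, and 6 fell with the length and GC offset. The matrix gene CCN2, a target of TGF-β and YAP, fell by 0.20.

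On the lists of genes that respond to ERK signalling, a pathway downstream of TrkB and of many other receptors, more members rose than fell. Of 19 ERK1/2 feedback and output genes, 9 rose and 0 fell, with a median log2 fold change of 0.17. SPRY4 and SPRY2, encoding Sprouty inhibitors of receptor tyrosine kinase signalling, rose by 0.51 and 0.34. SPRY4 was at 72.9, 77.8 and 68.6 CPM in siCtrl and 104, 106 and 104 in siBDNF (edgeR adjusted p = 2.68e-07). ETV1, encoding an ETS transcription factor, and IER3 rose by 0.40 and 0.35. DUSP4, encoding a phosphatase of ERK, rose by 0.85 from a low level. The group held 8 or 9 higher calls whichever library was left out, with 1 lower without siCtrl replicate 2. With the length and GC offset 11 were higher and 1 lower, and 1 was also lower with DESeq2 and with only the 6 libraries. Of 18 immediate early genes, 8 rose and 1 fell (median 0.18), among them JUN (0.26) and NR4A2 (0.33), and 5 were higher without siBDNF replicate 3 and 0 lower without siBDNF replicate 2.

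**Figure D4:**
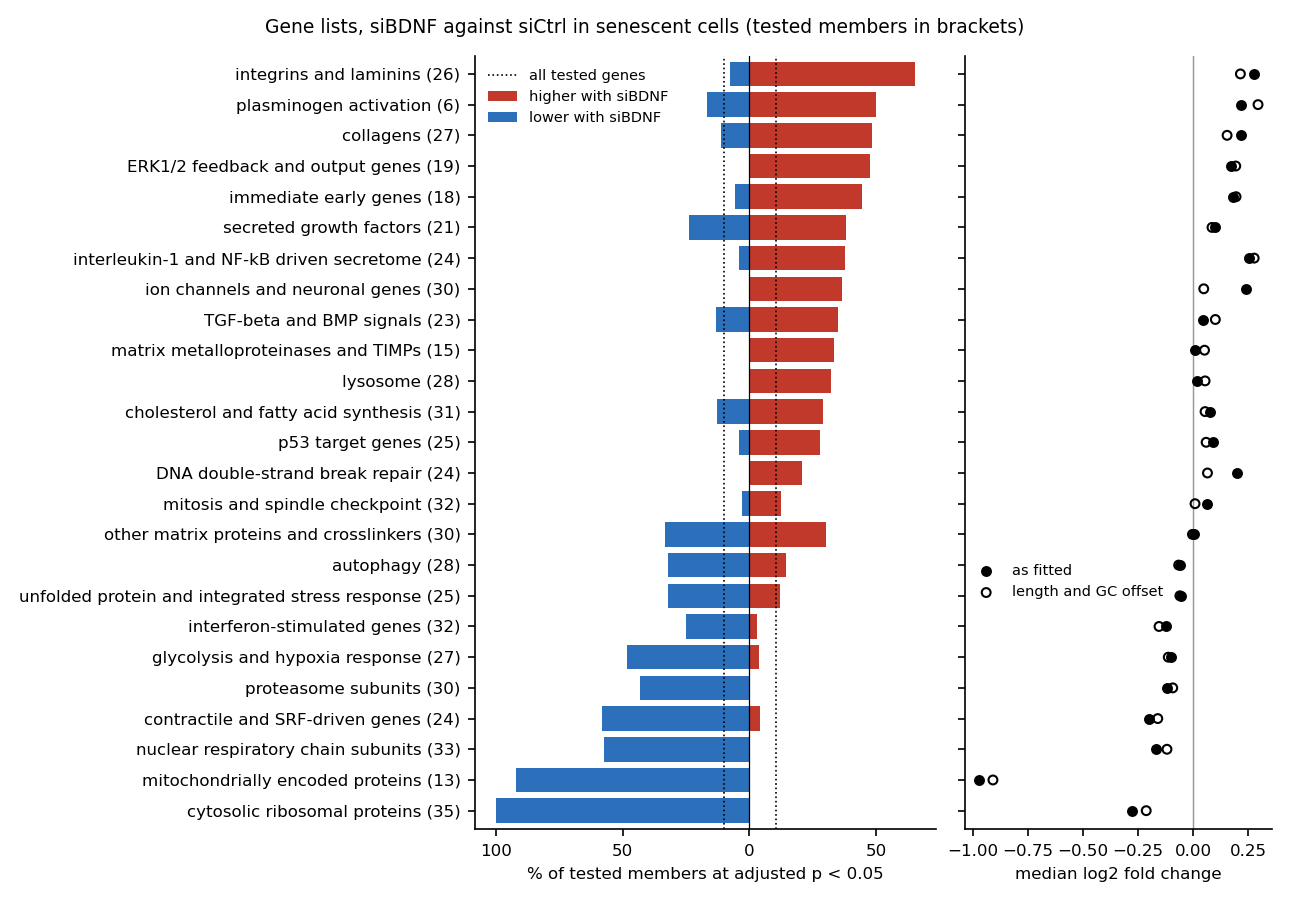
Left, the percentage of tested members of each gene list called higher (red) or lower (blue) with siBDNF at an adjusted p below 0.05, with dotted lines at the percentage among all tested genes (10.3% higher, 10.2% lower). Right, the median log2 fold change of each list as fitted (filled circles) and with the length and GC offset (open circles). Cytosolic ribosomal proteins (100% lower), mitochondrially encoded proteins (92.3% lower) and integrins and laminins (65.4% higher) stand at the ends, and the ion channel list is among those with the largest shift between the filled and open circles.

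The BCL2 family decides between survival and death of senescent cells. Of its 5 anti-apoptotic members, 1 rose and 1 fell, and 2 rose with library totals or with the length and GC offset. MCL1 rose from 248, 246 and 246 CPM to 336, 334 and 346 (log2 fold change 0.46 ± 0.04, edgeR adjusted p = 4.73e-08). BCL2L2, encoding BCL-W, was at 51.9 CPM in the mean of siBDNF and 60.9 in siCtrl (−0.23 ± 0.06, adjusted p = 0.0110). The BCL2L2 call was lost with library totals (adjusted p = 0.0755), without siBDNF replicate 3 (0.123) and without siCtrl replicate 2 (0.0666). BCL2L1, encoding BCL-XL, did not pass the test, but did with library totals (0.12, adjusted p = 0.0375) and with the offset (0.11, 0.0387). Of 10 pro-apoptotic members 3 were higher and 0 lower, and 4 were higher and 1 lower with the offset. BMF had a log2 fold change of 0.48 (adjusted p = 0.00399), BCL2L11, encoding BIM, 0.51 and BBC3, encoding PUMA, 0.28. The BBC3 call (adjusted p = 0.0436) was lost without any siBDNF library, siCtrl replicate 2 or siCtrl replicate 3 (0.0842 to 0.230) and with DESeq2 (0.0509), and the BCL2L11 call without siBDNF replicates 2 or 3 or siCtrl replicate 3 (0.0594 to 0.0881), so that 1 member was higher without siBDNF replicate 2, siBDNF replicate 3 or siCtrl replicate 3.

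Downstream of the BCL2 family, 6 of 18 caspase and IAP genes rose and 2 fell. Lower were 0 with library totals and without siBDNF replicate 2, siBDNF replicate 3, siCtrl replicate 1 or siCtrl replicate 2, and 1 without siBDNF replicate 1. The inhibitor of apoptosis genes BIRC6, BIRC2 and XIAP rose by 0.48, 0.39 and 0.36 on the log2 scale, and so did APAF1, encoding the apoptosome scaffold, by 0.38. BIRC2 was at 75.2, 82.2 and 75.1 CPM in siCtrl and 102, 104 and 99.7 in siBDNF. These 4 genes also rose with the length and GC offset (0.26, 0.30, 0.18 and 0.26). Of 25 p53 target genes 7 rose and 1 fell, with 4 higher without siBDNF replicate 1 and 3 higher without any of siBDNF replicates 2 and 3 and siCtrl replicates 1 and 3. The number lower was 0 whichever library was left out, and 0 with library totals. SESN1, encoding a stress sensor, rose by 0.42, and ZMAT3 by 0.26, the latter without a call under the offset (edgeR adjusted p = 0.411).

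Among the 7 CDK inhibitors, which hold senescent cells out of the cycle, 1 changed. CDKN2B, encoding p15, rose from 30.4, 31.1 and 30.3 CPM to 57.9, 58.2 and 54.4 (log2 fold change 0.89 ± 0.06, edgeR adjusted p = 7.62e-11). CDKN1A, encoding p21, was at 2961, 2774 and 2896 CPM with siCtrl and 2753, 2766 and 2860 with siBDNF, a difference that did not pass the test. CDKN2A, the gene of p16 and p14ARF beside CDKN2B, had a log2 fold change of 0.14 (adjusted p = 0.140), which passed with library totals (0.20, 0.0287) and with the length and GC offset (0.24, 0.00163), and in a fit of only the 6 libraries (0.14, 0.0388). CCND2, encoding cyclin D2, a partner of the kinases that p15 blocks, is on no list and was named after its values were seen. It rose from 25.3, 23.2 and 23.9 CPM to 45.5, 44.3 and 46.8 (0.92 ± 0.06, adjusted p = 1.33e-10).

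Of 32 genes of mitosis and the spindle checkpoint, 4 rose and 1 fell, and 2, 2 and 7 were higher without siBDNF replicate 2, siCtrl replicate 3 and siCtrl replicate 2. The lower call was lost with library totals and without any library but siCtrl replicate 3. CENPF and MKI67, encoding a kinetochore protein and the proliferation antigen Ki-67, rose by 0.93 and 0.91 from low levels (2.67 and 1.28 CPM in the mean of siCtrl to 5.00 and 2.35). Of 34 replication genes, 3 rose and 2 fell, the latter being RRM2 (−0.46) and TK1 (−0.43), which supply nucleotides. Of the replication genes 1 was higher without siCtrl replicate 2 or siCtrl replicate 3. With the length and GC offset 5 were higher and 3 lower, and 4 were lower in a fit of only the 6 libraries. In double-strand break repair, 5 of 24 genes rose, led by ATM (0.56) and RAD50 (0.47), and 2 did with the length and GC offset.

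Interferon-stimulated genes fell in part, with 8 of 32 lower and 1 higher (median log2 fold change −0.12). ISG15, encoding a ubiquitin-like modifier, and IFIT1, encoding an RNA-binding effector, fell by 0.42 and 0.64. The largest decrease of the list, and its 1 member at the full threshold, was OAS1, encoding an oligoadenylate synthetase, at a level near the floor. It was at 0.463, 0.345 and 0.398 CPM in siCtrl (26, 20 and 23 counts) and 0.0611, 0.118 and 0.0582 in siBDNF (2, 8 and 4 counts), with a log2 fold change of −2.27 ± 0.72 (edgeR adjusted p = 0.0262). The OAS1 call was lost without any library but siCtrl replicate 2 (0.0552 to 0.1197). MX1 had a log2 fold change of −0.94, lost without siCtrl replicate 3 (edgeR adjusted p = 0.0509). Without siBDNF replicate 2 or siCtrl replicate 3 the number lower was 5. The median was −0.07 with library totals, −0.20 without siBDNF replicate 3 and −0.19 without siCtrl replicate 1. The number higher was 0 without siBDNF replicate 1, siCtrl replicate 1 or siCtrl replicate 3, and 2 without siCtrl replicate 2.

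Genes of glycolysis and the hypoxia response were lower in part. Of 27 glycolysis and hypoxia genes, 13 fell and 1 rose (median log2 fold change −0.10), and 15 fell with the length and GC offset. With library totals 10 fell and 2 rose (median −0.04), and 9 fell without siBDNF replicate 2 or siCtrl replicate 3. SLC2A1, encoding the glucose transporter GLUT1, fell from 223, 210 and 229 CPM to 162, 159 and 161 (−0.46 ± 0.04, edgeR adjusted p = 3.74e-08). GPI and ALDOA, encoding glycolytic enzymes, fell by 0.31 each, and ADM, a hypoxia target, by 0.35. HK2, encoding hexokinase 2, was the member that rose (0.25). In the unfolded protein and integrated stress response list 8 of 25 genes fell and 3 rose, with 5 lower and 5 higher under library totals and 5 lower without siBDNF replicate 2. Its leading members were PHGDH and PSAT1, of serine synthesis, and ASNS, encoding asparagine synthetase, which fell by 0.55, 0.46 and 0.41. PHGDH was at 29.1, 28.6 and 26.8 CPM in siCtrl and 19.02, 18.8 and 19.7 in siBDNF.

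In lipid metabolism, 9 of 31 genes of cholesterol and fatty acid synthesis rose and 4 fell, with 13 and 1 under library totals and 1 lower without siBDNF replicate 1, siBDNF replicate 2, siCtrl replicate 1 or siCtrl replicate 3. INSIG1, encoding a sterol sensor of the endoplasmic reticulum, rose from 33.3, 34.7 and 35.0 CPM to 51.9, 51.6 and 53.2 (log2 fold change 0.61 ± 0.05, edgeR adjusted p = 1.31e-08). MSMO1 and HMGCS1, encoding enzymes of sterol synthesis, rose by 0.56 and 0.43, and FADS2, encoding a fatty acid desaturase, fell by 0.29. Of 18 adipocyte and lipid handling genes 4 rose and 4 fell (median −0.004), with 2 lower under library totals and without any siBDNF library or siCtrl replicate 1. The median of this list changed sign, to between 0.007 and 0.13, in the fits without 1 library. PPARG, encoding the adipogenic nuclear receptor, fell by 0.49, as did its target FABP4 (above), while G0S2, encoding an inhibitor of lipolysis, rose by 0.80.

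Of 28 lysosomal genes 9 rose and 0 fell (2 with the length and GC offset), led by CTSA (0.32) and PSAP (0.31), encoding a protective carboxypeptidase and the precursor of the saposins. PSAP was at 1052, 1181 and 1062 CPM in siCtrl and 1350, 1396 and 1350 in siBDNF. Of 28 autophagy genes 9 fell and 4 rose, whereas under library totals 3 fell and 6 rose, so the balance of the directions turned with the scaling. With the length and GC offset 5 fell and 3 rose. GABARAPL1, encoding an ATG8 protein of the autophagosome membrane, fell from 237, 236 and 238 CPM to 169, 169 and 171 (−0.48 ± 0.04, edgeR adjusted p = 9.37e-09), and MAP1LC3A, another ATG8 gene, by 0.52. Without siBDNF replicate 1, siBDNF replicate 2, siCtrl replicate 1 or siCtrl replicate 3 the autophagy genes lower numbered 4, 3, 3 and 3, and those higher 1, 2 and 1 without siBDNF replicate 2, siBDNF replicate 3 and siCtrl replicate 3. Of 20 NRF2, iron and glutathione genes 5 rose and 6 fell, with 2, 3 and 3 higher without siBDNF replicate 1, siBDNF replicate 3 and siCtrl replicate 1, and 3 higher with the length and GC offset. FTH1, encoding ferritin heavy chain, fell by 0.37. Of 12 heat shock chaperones 1 rose and 4 fell, among them CRYAB and HSPB1 by 0.59 and 0.36. The higher call was lost without any library but siCtrl replicate 2, and 2 were higher with library totals or the offset. Of 6 metallothionein genes tested 2 rose, MT1X by 0.50 and MT1E by 0.31, and 0 fell. These are short transcripts, and with the offset 3 rose and the median moved from 0.22 to 0.33. FZD8, encoding a Wnt receptor, rose from 15.7, 14.5 and 15.03 CPM to 27.1, 28.0 and 26.8 (0.86).

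The siRNA against NTRK2, the receptor gene, allowed a direct contrast of the siRNA pools in cells made senescent in the same way. NTRK2 was near the floor already in siCtrl (mean 0.185 CPM) and at 0 CPM in siNTRK2. BDNF was higher with siNTRK2 than with siCtrl (means of 205 and 162 CPM, log2 fold change 0.33, edgeR adjusted p = 8.35e-06). How far the differences below came from loss of the ligand or of the receptor was not tested. The contrasts of siBDNF and of siNTRK2 with siCtrl share the 3 siCtrl libraries, so their values are given side by side, and differences were taken from the direct contrast of siBDNF with siNTRK2 in the same edgeR fit. In that contrast 3595 genes differed at an adjusted p below 0.05 (16.7%), 1692 higher (7.86%) and 1903 lower (8.84%) with siBDNF, and 250 at the full threshold.

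The secretome list differed between the siRNAs. Of the 24 interleukin-1 and NF-κB driven genes, 16 differed, all of them higher with siBDNF than with siNTRK2, and the median log2 fold change against siCtrl was 0.25 with siBDNF (0.16 without siCtrl replicate 1) and −0.55 with siNTRK2. IL1A was 3.60 higher with siBDNF than with siNTRK2 on the log2 scale (edgeR adjusted p = 6.68e-07), with 1.40 against siCtrl for siBDNF and −2.21 for siNTRK2. CXCL8 differed by 1.77 (0.26 and −1.52 against siCtrl). C3 differed by 2.01, with 1.30 for siBDNF and −0.72 for siNTRK2. VCAM1 was 1.33 lower with siBDNF than with siNTRK2, and ANGPTL4 was 1.08 higher. MMP3 differed by 1.33, with 0.87 and −0.46.

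ERK1/2 feedback genes differed in 13 of 19 members, and p53 targets in 15 of 25, all of them higher with siBDNF than with siNTRK2. Mitotic genes differed in 25 of 32 members and collagens in 20 of 27, all lower with siBDNF. Against siCtrl the medians of these lists were 0.17, 0.09, 0.06 and 0.22 with siBDNF and −0.12, −0.11, 0.85 and 0.54 with siNTRK2. The siBDNF median of the mitotic list was −0.001 to 0.11 without 1 library, 0.008 with the length and GC offset and 0.12 with library totals. That of the p53 list was 0.054 without siBDNF replicate 2, 0.059 with the offset and 0.15 with library totals. The mitochondrial protein genes had medians of −0.97 with siBDNF and −0.47 with siNTRK2, and 12 of 13 were lower with siBDNF in the direct contrast. The other gene, MT-ND3, was higher with siBDNF, by 0.25 (edgeR adjusted p = 0.000862). Contractile genes were lower with siBDNF in 16 of 24 and higher in 3. In the cytosolic ribosomal and nuclear respiratory chain lists 1 member each differed directly, and both had like medians with the siRNAs (−0.28 and −0.19, −0.17 and −0.15).

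**Figure D5:**
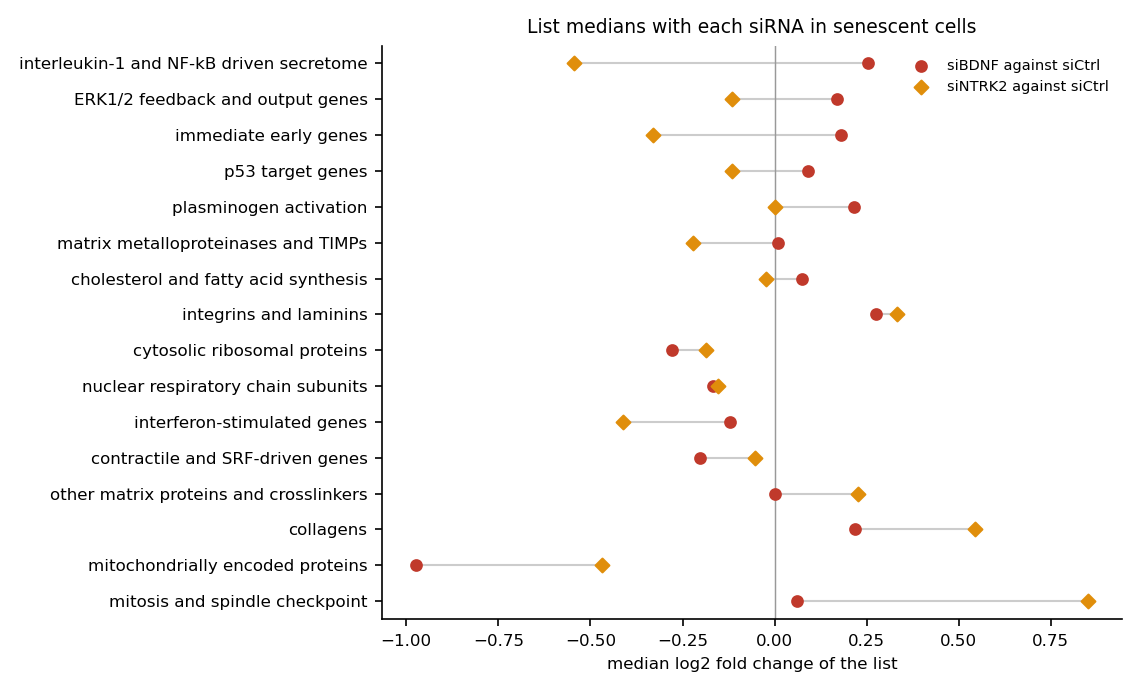
Median log2 fold change of 16 gene lists against siCtrl with siBDNF (red circles) and with siNTRK2 (orange diamonds), joined by a line, in senescent cells. The contrasts share the 3 siCtrl libraries. The interleukin-1 and NF-κB list lies at 0.25 and −0.55, the mitosis list at 0.06 and 0.85, and the cytosolic ribosomal list at −0.28 and −0.19.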

How the data were processed

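RNA of 12 libraries was prepared with a TruSeq Stranded mRNA kit. Per the submitters' processing notes and the study's methods, reads were converted with bcl2fastq (2.20.0.422), trimmed with Cutadapt, aligned to hg19 with STAR (2.4.0j) and counted per gene with featureCounts (1.6.4). Whether featureCounts used strand is not given in the sources used here. The authors deposited raw counts of 57773 genes, which were used as they are. Gene symbols (matched for 55538 gene IDs), coordinates and transcript lengths came from a GENCODE annotation lifted to the same build (GRCh37).

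Counts were filtered (filterByExpr over the 4 groups), scaled with TMM factors and fitted with edgeR (4.0.16, R 4.3.3), with 1 term per group over all 12 libraries, glmQLFit and glmQLFTest, and Benjamini-Hochberg adjustment over all tested genes. A gene was called at an adjusted p below 0.05, or with an absolute log2 fold change above 1 as well (full threshold). Levels are CPM over TMM-normalised library sizes. The share of mitochondrial counts was compared by an exact permutation test. On simulated counts for siBDNF against siCtrl with 21518 genes, 78 of 100 genes changed by 0.5 on the log2 scale were called, 100 of 100 genes changed by 1.5, and 11 unchanged genes. The changed genes were drawn from those above 1 CPM in siCtrl, and counts were drawn independently for each gene. Deviations that genes share, such as the length trend, were not simulated. These numbers therefore need not hold for the real libraries or for genes at lower levels. Counts of replicates differed by more than sampling noise (mean chi-square of 3.92 to 13.6 for single genes).

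Named genes were BDNF, its antisense gene and the neurotrophins and receptors, the 15 largest increases and decreases at the full threshold with a symbol, no overlap of groups and at least 1 CPM in the higher group, the 6 largest gains and losses in CPM, the 4 members of each list with the smallest p, members of lists of at most 15 genes, and genes measured by the study with RT-qPCR. The rule allowed fewer to be named, and not all of these are. CCND2, the members that made up counts of 5 or fewer, and others outside this rule, such as CXCL8, IL1B, CCN2 and DUSP4, were chosen after their values were seen. The comparison and the 51 gene lists were chosen with earlier results of these data known, so counts over a list describe it and are no independent evidence. Alternatives were DESeq2 size factors, library totals, DESeq2 (1.42.0), no filter, at least 10 counts, only the 6 libraries, the replicate block, each library left out, and, added after seeing the data, a length and GC offset per library (natural splines in a linear model, with 4 degrees of freedom each for length and GC). Markers of endothelial, epithelial, leukocyte, skeletal muscle and neuronal cells were also listed. Skeletal muscle markers summed to 1.64 to 1.78 CPM in siCtrl and 1.13 to 1.38 in siBDNF with 0 members called, and 1 of 6 neuronal markers (TUBB3, 0.18) was higher, a call lost without siBDNF replicate 3 or siCtrl replicate 3 (adjusted p = 0.0688 and 0.0501).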

Additional observations from a re-analysis of the deposited data

How the results depend on the processing

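The direction of BDNF and the difference in the mitochondrial share of counts were kept in all alternatives run, and of the 180 called genes among the 195 others named, 0 changed sign and 25 lost the call in at least 1 of the 14 alternatives. At the full threshold DESeq2 called 87 genes, 47 of them higher, and the edgeR fits without 1 library 87 to 150, with 47 to 106 higher. At the adjusted p alone the fits without 1 library called 2914 to 4651 genes, with 1344 to 2244 lower, and library totals gave 1388 lower. The cause of these differences was not tested. Genes that were not called and lay near 0 changed sign. CDKN1A was 0.029 with the length and GC offset and 0.015 with library totals. IL6 was −0.040 to 0.081, and MT-ND3 −0.031 to 0.067, in the fits without 1 library. Same-numbered libraries did not deviate together in each pair (correlations −0.015, 0.171 and 0.172 over 13965 genes), so the numbers were not taken as pairs. With the replicate block 4434 genes were called, 123 of them at the full threshold, sharing 4271 and 114 with the fit without it. In the deviations from the group means, siBDNF replicate 1 correlated with no siCtrl library, the highest value being 0.017 with siCtrl replicate 3. Depth limits genes near the floor of 0.0437 to 0.0916 CPM, such as NTRK2, and in siBDNF replicate 1, the shallowest library, more than in the others.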

Other observations

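In the Wnt list, which holds FZD8 (above), 5 of 26 tested genes rose and 3 fell, with 1 lower under library totals and without siBDNF replicate 1 or siCtrl replicate 3, and 5 lower with the length and GC offset. LEF1 and TCF7, encoding transcription factors of the pathway, rose by 0.55 and 0.51 on the log2 scale, and FZD7, encoding a receptor, fell by 0.32. In the Notch list 3 of 13 rose, among them JAG2, encoding a ligand, from 1.14, 1.09 and 0.831 CPM to 1.98, 2.45 and 1.70 (1.01, edgeR adjusted p = 0.00180), and 1 fell, with 5 higher under library totals and 2 lower with the offset. In the RNA interference list 4 of 13 rose and 0 fell, led by TNRC6C (0.62) and TNRC6A (0.38), which encode partners of Argonaute proteins. These transcripts are long (median 8491 bases), and with the length and GC offset 2 rose and 3 fell. The Spearman correlation of the log2 fold change with transcript length was 0.32 with siBDNF and 0.25 with siNTRK2 across the same genes, both against the same siCtrl libraries.

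Lists of receptors, antigen presentation and mitochondrial regulation had calls in both directions. Of 14 genes of MHC class I antigen presentation 3 rose and 4 fell, and HLA-E, encoding a non-classical class I molecule, fell from 349 to 298 CPM in the group means (−0.23). Higher were 1 without siBDNF replicate 1 and 0 without siBDNF replicate 3, siCtrl replicate 1 or siCtrl replicate 3, and lower were 2 with library totals and without siCtrl replicate 1 or siCtrl replicate 3. Of 11 genes of the ERK5 and MEF2 pathway 2 rose and 1 fell. The 2 that rose were MAP3K2, encoding a kinase upstream of ERK5, and KLF4, encoding a transcription factor that it induces (0.42 and 0.44). With library totals or without siCtrl replicate 2 the number higher was 4, and the lower call was lost with library totals, with the offset and without any library but siCtrl replicate 3. Of 10 death receptor and adaptor genes 3 rose and 1 fell. TNFRSF10B, encoding the TRAIL receptor DR5, had a log2 fold change of 0.15, a call lost without siCtrl replicate 1 (edgeR adjusted p = 0.0653). In that list 0 were higher without siCtrl replicate 1, 1 without siBDNF replicate 1, siBDNF replicate 2 or siCtrl replicate 3, 6 with library totals and 5 with the offset, and in each of these 0 were lower. Of 9 genes of IGFs, their receptors and binding proteins 3 rose and 1 fell, with 1 higher and 0 lower without siCtrl replicate 1, 0 lower without siBDNF replicate 2 and 2 lower with the offset. IGF2R, encoding the receptor that clears IGF2, rose from 294 to 354 CPM in the group means (0.27). Of 18 genes of mitochondrial transcription and replication 4 rose and 2 fell. Without siBDNF replicate 2 or siBDNF replicate 3 the number higher was 1, and the number lower was 1 with library totals and without any library but siCtrl replicates 2 and 3, and 0 without siCtrl replicate 3.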
